A study of Mus musculus with 2 samples.

Results

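The AP-1 and ATF3 family genes followed here are 10 of the 55536 annotated genes in the tables. They were chosen by name: Fos, Fosb, Fosl1 and Fosl2 of the FOS subfamily, Jun, Junb and Jund of the JUN subfamily, and Atf3, Batf and Batf2. The rule uses no measured value, and every member had a row in both libraries.

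All 10 encode basic leucine zipper (bZIP) transcription factors, which bind DNA as dimers through a basic stretch next to the zipper. JUN proteins pair among themselves or with FOS proteins, whereas FOS proteins need a partner to bind DNA; ATF3 and the BATF proteins pair mainly with JUN proteins and have no strong activation domain of their own. In macrophages some members are switched on by MAP kinases below Toll-like receptors. Fos and Atf3 belong to the early response genes, and ATF3 is known as a brake on cytokine genes.

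The tables come from polyA-selected RNA of primary macrophages grown from bone marrow of C57BL/6J mice with no engineered allele named in the labels. Both libraries had the same treatment: 100 ng/ml lipid A for 12 h, 12 h after washing it out, and a further 120 min in 100 ng/ml lipid A. Lipid A, the part of bacterial lipopolysaccharide that TLR4 senses, is the agent in the experiment's description, while other label fields call it lipoprotein A. The labels number the libraries as biological replicates 1 and 2 but give a single donor for both, do not record sex or age, and do not say that separate animals were used, so their spread can be partly technical. No untreated or once-treated library was analysed here, so levels are described and no condition is compared with another. Replicate 1 held 45377715 expected counts (estimated reads) and replicate 2 held 32112416, so 3 reads correspond to 0.0661 and 0.0934 CPM. All 9 macrophage markers reached 10 TPM in both libraries, led by Lyz2 and Cd68. Lymphoid, mast cell, erythroid and stromal markers were all under 1 TPM in both, as were 4 of 5 dendritic cell markers, the exception being Ccr7 at 4.55 and 3.60 TPM. Of 8 neutrophil markers none reached 10 TPM in both, and Ly6g had 0 reads in each, but their summed level was 63.5 TPM in replicate 1 and 6.58 TPM in replicate 2.

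The members share a residue pattern in the basic region, while the bases that code for it vary. In the leading coding transcript of each (GENCODE M21), a pattern for this region was found at a single place. The stretches are shown because they code for the part of each protein that binds DNA. The pattern was not searched in other bZIP genes. Capitals mark the codons of the asparagine at the start and the arginine at the end, residues that bZIP proteins use to contact DNA.
Fos: AATaagatggctgcagccaagtgcCGG
Fosb: AACaagctggctgcagctaagtgcAGG
Fosl1: AACaagctagcagctgctaagtgcAGA
Fosl2: AACaagctagctgcagccaagtgtCGG
Jun: AACcgcattgccgcctccaagtgcCGG
Junb: AACaggctggcggccaccaagtgcCGG
Jund: AACcgcatcgccgcctccaaatgcCGC
Atf3: AATaaaattgctgctgccaagtgtCGA
Batf: AATcgcatcgctgcccagaagagcCGA
Batf2: AACcgagtggctgcccagcgcagcCGG

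Of the 27 bases, Jun and Jund share 24, Fos shares 23 with Fosb and with Fosl2, and Jun and Junb share 21. Atf3 shares 22 with Fos and 21 with Fosl2, but 18 with Fosb, as many as with Jun. Junb shares 21 also with Fos, Fosb and Fosl2. Batf and Batf2 share 19 with each other, and Fosl1 and Batf2 share 11, the fewest of any pair.

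Atf3, the BATF genes and the JUN genes held most of the family's transcripts, and FOS transcripts were scarce at this time point. Levels are given as TPM, length-corrected transcript abundances scaled to a fixed total per library, so genes can be compared with each other. Of the 10 members, 6 reached 10 TPM in both libraries (Atf3, Batf, Junb, Jund, Batf2 and Jun), 3 lay lower (Fos, Fosl2 and Fosb), and Fosl1 was under 1 TPM in both. For comparison, 11.1% of all annotated genes and 27.2% of protein-coding genes reached 10 TPM in both libraries. The order of means was Atf3, Batf, Junb, Jund, Batf2, Jun, Fos, Fosl2, Fosb and Fosl1. Neighbours whose libraries overlapped, and so did not differ beyond their spread, were Batf and Junb, Jund and Batf2, and Fos and Fosl2. The widest step among the genes above 1 TPM was from Jun to Fos, whose means differed 7.50-fold.

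**Figure D1:**
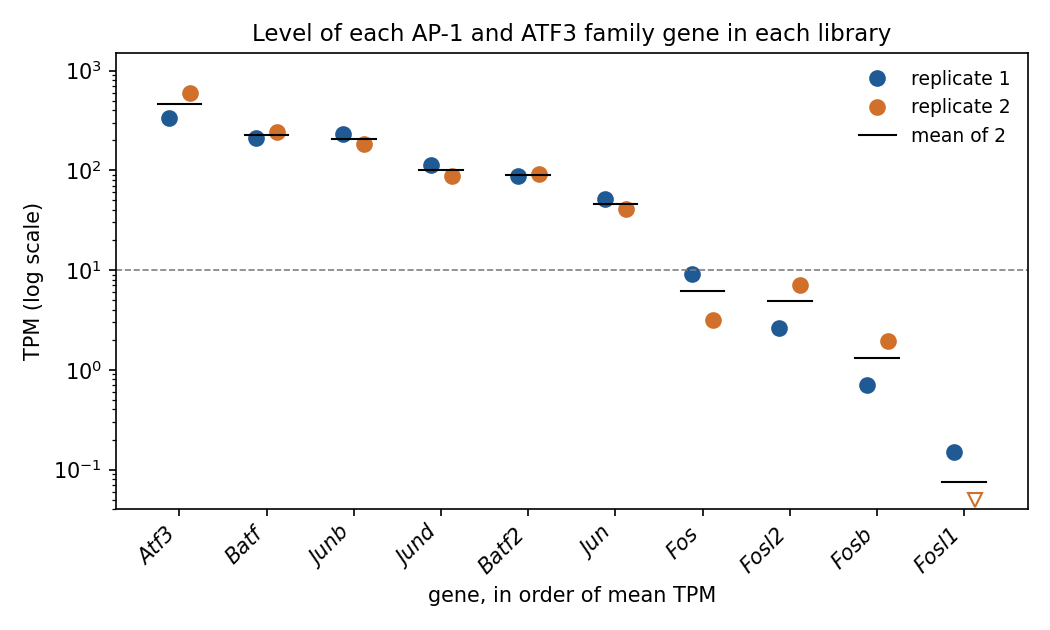
TPM of each gene (vertical axis, log scale) in replicate 1 and replicate 2, with the mean of both as a bar and 10 TPM as a dashed line; the open triangle at the lower edge marks the 0 TPM of Fosl1 in replicate 2. Genes from Atf3 to Jun lie above the dashed line in both libraries, and all 4 FOS genes lie under it.

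Among the JUN genes, Junb was the most abundant. Junb, which encodes a JUN protein with a weaker activation domain than Jun, was at 231 TPM in replicate 1 and 184 TPM in replicate 2 (208 ± 33.2, SD, n = 2). Jund, the JUN gene known for steady expression in resting cells, was at 112 and 87.8 TPM (99.9 ± 17.2). Jun, the founding member and a main target of the JNK kinases, was at 51.4 and 40.5 TPM (46.0 ± 7.68). Each JUN gene was higher in replicate 1. The make-up of the subfamily was alike in both libraries: Junb made up 58.6% and 58.9% of the summed JUN TPM, Jund 28.4% and 28.1%, and Jun 13.0% in each.

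The reads of Jund, and to a smaller extent those of Jun, overlap an antisense gene. Gm11175, annotated as antisense at chr8:70699162-70700080 (mm10), overlaps 877 bases of the single exon of Jund (chr8:70698949-70700616), which is 52.6% of its transcript, all of it coding. Strand use in counting is not given in the sources used here, so reads in these bases cannot be told apart. The gene tables gave Gm11175 0 reads in replicate 1 and 282 reads in replicate 2, which is 49.2 TPM there. In the second quantification, made directly from reads, it had 0 and 21.5 reads, while Jund had 6918 and 3883 reads in place of 4866 and 2597. There Junb was at 189 and 166 TPM, Jund at 123 and 115 TPM and Jun at 43.3 and 37.8 TPM. Jund thus made up a larger part of the JUN total than in the shares above. With the reads of Jund and Gm11175 in the gene tables summed, the log2 ratio of replicate 2 to replicate 1 was -0.18, against -0.33 for Jund alone. Jun shares 232 bases, 7.28% of its transcript, with the antisense gene Junos, which had 8.14 and 3.01 reads. The leading transcript of Junb shares no base with its neighbour Prdx2, since that overlap concerns Junb-202, which had 0 reads.

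The FOS genes were low, and their members did not lie to the same side between the libraries. Fos, the early response partner of the JUN proteins, was at 9.12 TPM in replicate 1 and 3.13 TPM in replicate 2, from 522 and 119 reads. Fosl2, which encodes FRA-2, was at 2.65 and 7.16 TPM, from 520 and 719 reads. Fosb was at 0.71 and 1.93 TPM, from 67 and 127 reads. Fos was thus high in replicate 1, and Fosl2 and Fosb were high in replicate 2. Fosl1, which encodes FRA-1, had 1 read in replicate 1 and 0 in replicate 2, where 3 reads would be 0.0934 CPM. That read was assigned to a retained-intron transcript, and the coding transcript Fosl1-201 had 0 reads in both libraries. It shares 1163 bases with Ccdc85b on the opposite strand, which itself had 81 and 26 reads.

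The summed TPM of the 4 FOS genes was 12.6 in replicate 1 and 12.2 in replicate 2. The summed TPM of the 3 JUN genes was 394 and 312, and that of Batf and Batf2 was 297 and 332. JUN genes made up 96.9% and 96.2% of the summed TPM of FOS and JUN genes (96.6% ± 0.469, SD, n = 2), or 31.2 and 25.6 JUN transcripts per FOS transcript. With protein-coding transcripts alone the FOS sum was 12.5 and 9.85 TPM, which is 1.27-fold higher in replicate 1, as the JUN sum was 1.26-fold. On that count there were 31.6 and 31.7 JUN transcripts per FOS transcript. These are transcript levels, and protein levels were not measured.

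Few reads show which FOS transcripts were present. All TPM of Fos in replicate 1 and 97.3% in replicate 2 was assigned to the coding Fos-201, but the second quantification gave it 85.5% and 78.8%, with the rest in Fos-202, which has no annotated coding sequence. For Fosb, Fosb-201 took 63.8% and 51.7% of TPM. Fosb-207 and Fosb-206 lack a 140-base segment at chr7:19305007-19305146 (minus strand), the segment whose removal by splicing gives the shortened protein known as delta FosB. Their annotated coding sequences differ, with 603 bases in Fosb-207 and 711 in Fosb-206, so they do not encode the same protein. Fosb-207 held 14.8 and 47.8 reads, or 20.7% and 35.8% of the TPM of Fosb. The second quantification gave it 0.67% and 14.0%. Fosb-206 held 15.6% and 11.8% from 2.78 and 3.93 reads, and 37.0% and 18.5% in the second quantification. The split between Fosb-207 and Fosb-206 was thus not settled at this depth. For Fosl2, the coding Fosl2-201 was at 2.65 and 4.89 TPM, and the retained-intron Fosl2-203 was at 0 and 2.27 TPM, from 0 and 69.1 reads. The second quantification gave Fosl2-203 0.59 and 4.19 TPM, from 34.1 and 146 reads.

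Atf3 stood highest of the 10. It was at 336 TPM in replicate 1 and 591 TPM in replicate 2 (463 ± 180, SD, n = 2), from 17921 and 12492 reads. Its lower library lay above the higher library of Batf, the next gene, at 241 TPM. Scaled to library size, however, the reads of Atf3 were nearly alike, with replicate 2 at 1.04 times replicate 1 (95% counting interval 1.01 to 1.06), or at 0.985 times by library totals, while its TPM ratio was 1.76. The gap between the measures sits in the transcripts. The coding Atf3-201, with 4 exons, was at 336 and 303 TPM, from 17921 and 10996 reads. Atf3-202, a 517-base transcript with 5 exons and no annotated coding sequence, was at 0 and 288 TPM, from 0 and 1496 reads. In replicate 2 it held 48.7% of the gene's TPM but 12.0% of its reads, because TPM divides by length, and the effective length of the gene in the table was 1699 bases in replicate 1 and 997 in replicate 2.

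The second quantification divided the reads differently. It put Atf3-201 at 259 and 260 TPM and Atf3-202 at 76.0 and 314 TPM, from 714 and 2083 reads. Atf3-202 was therefore higher in replicate 2 in both quantifications, at levels in replicate 1 that depend on the method. All 517 bases of Atf3-202 are also exonic in Atf3-201, which is 1984 bases long and reaches further at both ends. Atf3-202 thus has no bases of its own, and a splice sets it apart within the stretch it spans. Atf3-202 lacks a 106-base coding segment inside exon 2 of Atf3-201, at chr1:191177341-191177446 (mm10, minus strand). The segment is shown because, in the stretch that both transcripts span, reads in it or across its ends tell them apart. Capitals mark its first and last pair of bases, GT and AG, the pairs that usually bound an intron.
Atf3 segment: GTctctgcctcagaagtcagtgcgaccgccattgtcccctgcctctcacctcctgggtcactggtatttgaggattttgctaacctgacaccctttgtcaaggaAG

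Its length leaves 1 base after whole codons, so a transcript without it does not keep the reading frame of Atf3-201. The levels of Atf3-201 alone, the coding form, lay above Batf in both libraries in both quantifications.

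**Figure D2:**
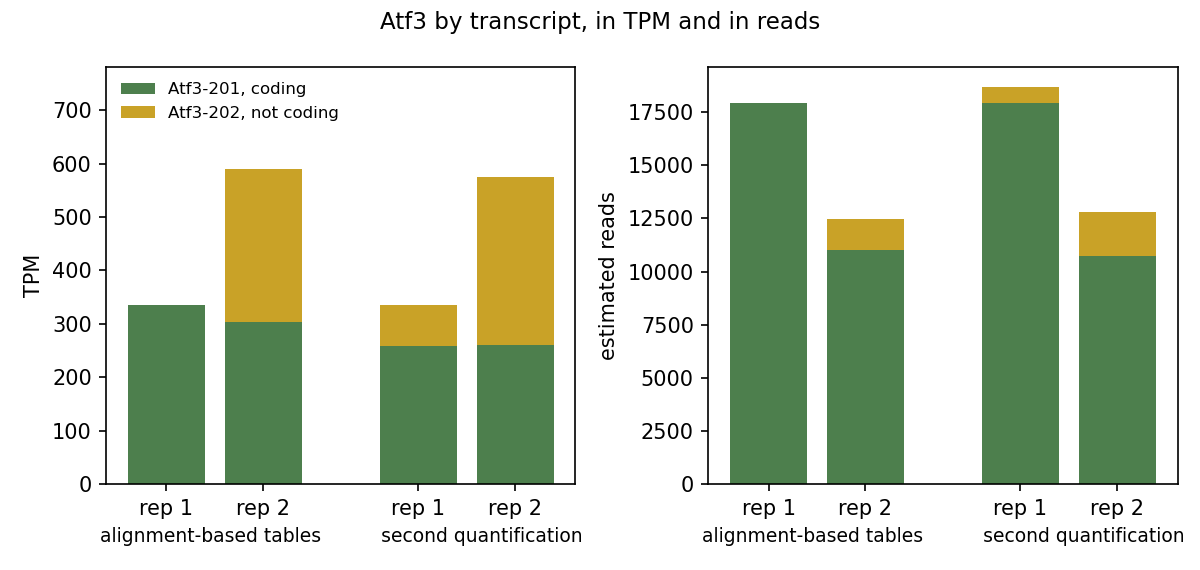
Atf3 by transcript in each library, as TPM (left) and as estimated reads (right), in the alignment-based tables and in the second quantification; bars are stacked from 0. Atf3-202 adds 288 TPM but 1496 reads to replicate 2 in the alignment-based tables.

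The BATF genes were abundant and close between libraries. BATF and BATF2 are small bZIP proteins that bind with JUN proteins and, with IRF factors, composite sites of immune genes. Batf was at 210 TPM in replicate 1 and 241 TPM in replicate 2 (225 ± 22.2, SD, n = 2). Batf2, an interferon-induced gene, was at 87.6 and 91.1 TPM (89.3 ± 2.45), the smallest difference relative to its mean among the members. Batf-201 held 99.2% and 99.5% of the TPM of Batf. Batf2-201 held 76.5% and 78.1% of the TPM of Batf2, and the protein-coding transcripts together 84.3% and 83.8%. An overlap of Batf2 with Arl2 covers 51 bases of other transcripts and none of Batf2-201.

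Between the libraries, 3 of the 9 members that could be compared lay at least 2-fold apart, 1 of them higher in replicate 1 and 2 higher in replicate 2. Each ratio is of expected counts after adding 0.5 reads and scaling by TMM, for genes with a mean count of at least 10, which left out Fosl1. Of all 12552 genes compared in this way, 11.3% were at least 2-fold apart, 5.97% being higher in replicate 1 and 5.34% higher in replicate 2. Fos was 2.94-fold higher in replicate 1, a log2 ratio of replicate 2 to replicate 1 of -1.56 with a 95% counting interval of -1.86 to -1.27. Fosb was 2.81-fold higher in replicate 2 (interval 2.08 to 3.85), and Fosl2 was 2.06-fold higher there (interval 1.83 to 2.31). The 3 genes apart were all FOS genes, and the interval of Fosl2 reaches below 2-fold. Fosl2 came to 1.95-fold by library totals and to 1.86-fold from protein-coding transcripts alone.

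The other members differed less. Junb, Jund and Jun were 1.24-fold, 1.26-fold and 1.26-fold higher in replicate 1, and each stayed on that side under every scaling and quantification run. Batf was 1.18-fold higher in replicate 2 (interval 1.12 to 1.23). The interval of Batf2, 0.994 to 1.12 around 1.05-fold, included no difference. The median log2 ratio of the 9 members was 0.05, against -0.02 for all genes compared. The median size of the ratio was 0.33 on the log2 scale for the members and 0.36 for all genes. The central 95% of all genes spanned -1.42 to 1.42, and Fos and Fosb lay outside it. The intervals cover counting error only, and with 1 group of 2 libraries no test of a condition is possible. In bulk RNA, fewer cells with a transcript and less of it per cell cannot be told apart. Neutrophil markers moved with Fos: the 4 that could be compared were all at least 2-fold higher in replicate 1, with S100a8 at 25.8 and 3.72 TPM, S100a9 at 26.4 and 1.18, Ngp at 7.99 and 0.40 and Ltf at 2.39 and 1.01. Their part in the difference of Fos was not tested.

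**Figure D3:**
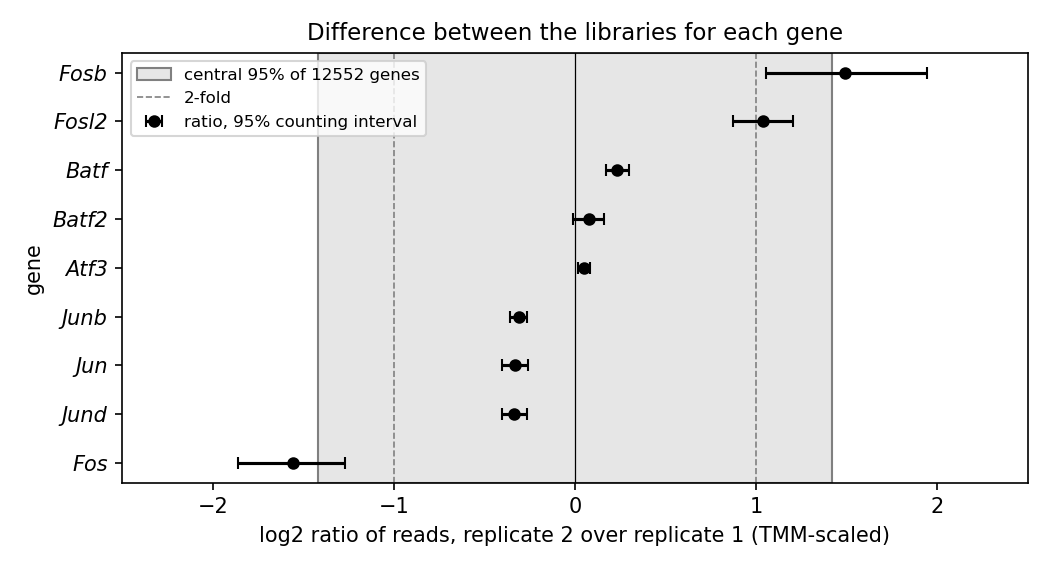
Log2 ratio of TMM-scaled reads of replicate 2 over replicate 1 (horizontal axis) for the 9 compared genes, with 95% counting intervals; the grey band is the central 95% of all compared genes and dashed lines mark 2-fold. Fos lies left of -1, Fosl2 and Fosb right of 1, and the JUN genes between -0.33 and -0.31.

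Set among 51 bZIP genes, 6 members lay in the first 16 ranks and the 4 FOS genes between ranks 37 and 46. Atf3 was first by mean TPM, Batf the fourth, Junb the fifth, Jund rank 9, Batf2 rank 12 and Jun rank 16, whereas Fos was rank 37, Fosl2 38, Fosb 41 and Fosl1 46. Of the other 41 bZIP genes, 23 reached 10 TPM in both libraries and 8 were under 1 TPM in both. The highest were Nfe2l2, which encodes the oxidative stress regulator NRF2, at 250 and 460 TPM, Ddit3, the stress factor CHOP, at 210 and 286 TPM, Nfe2l1 at 136 and 248 TPM, and Jdp2, a JUN dimerization partner that represses AP-1 sites, at 64.8 and 193 TPM. The libraries of Nfe2l2 overlapped those of Atf3. The rank of Atf3 counts all its transcripts, including those without a coding sequence. Its protein-coding transcripts alone averaged 319 TPM, under the 355 TPM of Nfe2l2 from all transcripts. The order of Atf3 and Nfe2l2 thus depends on which transcripts are counted. Of 35 other bZIP genes compared, 2 were at least 2-fold higher in replicate 1 and 1 was in replicate 2, and their median log2 ratio was 0.06. Those with over 100 reads on average were Cebpa, a myeloid lineage factor, at 15.8 and 4.95 TPM, and Jdp2, which was 2.99-fold higher in replicate 2 (interval 2.86 to 3.14). The other, named after its values were seen, was Batf3, at 7.21 and 2.34 TPM from 96 and 18 reads.

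**Figure D4:**
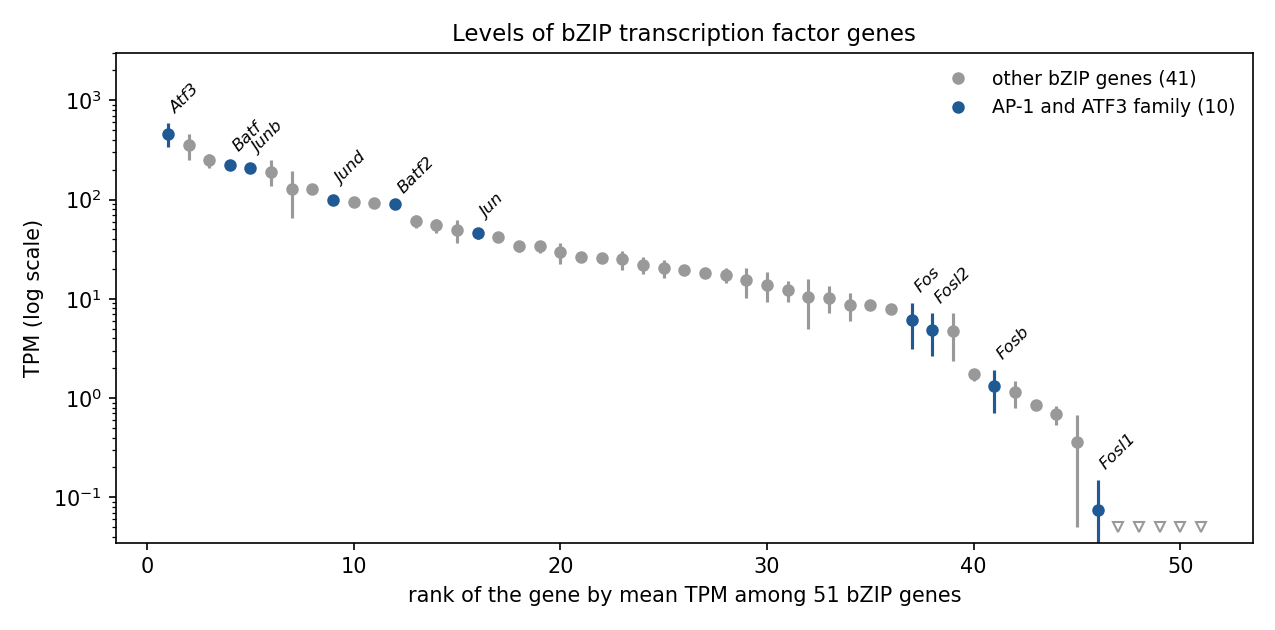
Mean TPM (points, log scale) of 51 bZIP genes in order of rank, with lines from the lower to the higher library; open triangles at the lower edge mark 5 genes with a mean under 0.05 TPM, none of them a member. Atf3 to Jun lie within the first 16 ranks, and the FOS genes lie from rank 37 down.

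Jdp2 also lies between members on the chromosome. Fos (chr12:85473890-85477273) and Batf (chr12:85686669-85709087) are 209 kb apart on the plus strand, and Jdp2 (chr12:85599027-85639878) is the single protein-coding gene between them in GENCODE M21. These neighbours did not move to the same side: Fos was 2.94-fold higher in replicate 1, Jdp2 2.99-fold and Batf 1.18-fold higher in replicate 2. Fosl1 and Batf2 share chromosome 19 with 685 kb and 44 protein-coding genes between them, and were at 0.075 and 89.3 TPM on average.

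Transcripts of most, but not all, listed kinases that act on the family or above it were present in both libraries. Of 22 MAP kinase cascade genes, 15 reached 10 TPM in both and 4 were under 1 TPM in both. Mapkapk2, the kinase below p38 that stabilizes cytokine transcripts, was at 341 and 397 TPM. Mapk3, which encodes the kinase ERK1, was at 107 and 127 TPM, and Rps6ka1, an RSK kinase, at 77.6 and 61.0 TPM. Of 19 compared, 1 was 2-fold apart: Rps6ka5, the kinase MSK1 that phosphorylates CREB and histone H3, at 2.44 and 6.75 TPM (2.19-fold, interval 1.91 to 2.52). The median log2 ratio of these genes was 0.11.

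All 7 genes of factors known to act at the Fos and Jun promoters reached 10 TPM in both libraries, and none was 2-fold apart. The highest were Mef2d at 35.1 and 54.6 TPM, Mef2a at 29.1 and 53.1 TPM, Elk3 at 25.1 and 35.5 TPM, and Srf, the serum response factor, at 19.6 and 34.1 TPM. Their median log2 ratio was 0.30, and Fos and Jun were higher in replicate 1. Any relation of these factors to the levels of Fos or Jun was not tested.

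RefSeq promoters (build GRCm38.p6, 300 bases with 250 before the start site) were matched for 8 members, and Fosl1 and Batf2 had none. The stretches for Fos, Jun and Atf3 from 150 bases before to 29 after the start site are shown because these genes are the family's classic early response genes and stood far apart in level, at 6.13, 46.0 and 463 TPM on average. They lie at chr12:85473740-85473919 (plus strand), chr4:95052193-95052372 (minus) and chr1:191183304-191183483 (minus), and capitals mark the motifs given after them.
Fos promoter: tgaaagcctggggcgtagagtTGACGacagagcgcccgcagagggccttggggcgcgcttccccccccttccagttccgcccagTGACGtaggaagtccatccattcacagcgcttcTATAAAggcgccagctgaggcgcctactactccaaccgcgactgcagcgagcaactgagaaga
Jun promoter: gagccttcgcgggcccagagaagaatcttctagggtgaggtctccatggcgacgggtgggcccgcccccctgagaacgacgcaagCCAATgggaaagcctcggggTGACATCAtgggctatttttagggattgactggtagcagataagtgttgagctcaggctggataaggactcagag
Atf3 promoter: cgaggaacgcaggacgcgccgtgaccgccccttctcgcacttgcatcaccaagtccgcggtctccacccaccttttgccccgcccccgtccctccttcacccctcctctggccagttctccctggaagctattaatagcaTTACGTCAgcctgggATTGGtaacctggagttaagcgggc

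Motifs were searched on both strands over the 300 bases, with the start site as position 0, and were chosen with the sequences in view. Fos holds TGACG, the core shared by cAMP response elements, at -129 and -66, and TATAAA at -33. TGACG occurred in 20.8% and TATAAA in 13.6% of all 32851 promoters of that length. Jun holds the octamer TGACATCA from -45 to -38, a site known to bind JUN and ATF2, and CCAAT at -65. This octamer occurred in 3.62% of promoters and CCAAT in 37.4%. Atf3 holds TTACGTCA from -10 to -3, a site of the ATF type, present in 0.499% of promoters, and CCAAT on the minus strand from 5 to 9. TGACG on the minus strand overlaps that octamer. TGACG was also found in Fosb, Junb and Batf, and an NF-kB site, present in 8.46% of promoters, in Fos, Fosb and Fosl2. The AP-1 site TGANTCA, the full element TGACGTCA and the CArG box, present in 7.81%, 1.79% and 1.63% of promoters, were found in none of the 8 windows. Bases outside the 300 were not searched, so this absence does not extend to sites further upstream, for Fos or any other member. For Jund the RefSeq start site lies 1210 bases from the start of Jund-201 and for Fosl2 671 bases from that of Fosl2-201, so those windows do not cover the starts of the transcripts measured here.

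Genes that act on AU-rich transcripts were all present. The motif ATTTA, bound by decay factors, was counted in the 3′ untranslated region of each leading coding transcript. Fos had 4 in 815 bases, Jun 4, Atf3 3, Junb 2 and Fosl2 8 in 4653 bases. Jund, Fosb and Fosl1 had 1 each, and Batf and Batf2 had 0. Over 21037 genes the median was 1, and 34.8% had none. Per kilobase, Fos had 4.91, Junb 4.12, Jun 3.24, Atf3 2.53, Jund 1.88, Fosl2 1.72 and Fosl1 1.57. The median over all genes was 1.24, and Fosb at 0.47, Batf and Batf2 lay below it. For all genes, the longest coding 3′ untranslated region of each was used. The Fos site is shown because its copies overlap, with ATTTA in capitals.
Fos 3′ site: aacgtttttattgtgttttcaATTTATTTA

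All 6 genes of AU-rich binding proteins reached 10 TPM in both libraries and none was 2-fold apart. Hnrnpd, which encodes AUF1, was at 146 and 245 TPM. Zfp36, which encodes tristetraprolin, a factor that directs such transcripts to decay, was at 132 and 158 TPM. Elavl1, which encodes the stabilizing protein HuR, was at 46.0 and 47.7 TPM, and Zfp36l1 at 52.2 and 36.7 TPM. Of 5 genes for the turnover of JUN and FOS proteins, 3 reached 10 TPM in both and none was 2-fold apart, with Cop1, a ubiquitin ligase for JUN, at 43.5 and 92.4 TPM, Trib1 at 28.5 and 20.0 TPM, Itch at 22.2 and 21.6 TPM and Det1 at 4.50 and 2.79 TPM.

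Of 3 interferon regulatory factors that pair with BATF proteins, 2 reached 10 TPM in both libraries. Irf1 was at 540 and 472 TPM, with reads 1.35-fold higher in replicate 1, although the second quantification put it at 611 and 692 TPM. Irf8 was at 114 and 107 TPM. Irf4, the partner of BATF in lymphocytes, was at 0.34 and 1.06 TPM, 3.11-fold higher in replicate 2 (interval 2.20 to 4.51). Of 14 genes known as targets of AP-1 or ATF3, 10 reached 10 TPM in both libraries, 1 was at least 2-fold higher in replicate 1 and 4 were in replicate 2, and the median log2 ratio was 0.16. Over all genes compared, 5.97% were at least 2-fold higher in replicate 1 and 5.34% in replicate 2. The cytokine genes Tnf and Il1b were at 1078 and 1184 TPM and at 604 and 1081 TPM, and the chemokine gene Ccl2 at 927 and 458 TPM. By reads, Ccl2 was 1.97-fold higher in replicate 1, and Il1b was 1.82-fold and Tnf 1.11-fold higher in replicate 2. The 4 at least 2-fold higher in replicate 2 were 3 genes ATF3 is known to repress and Cd44. Of these, Il12b was at 34.9 and 159 TPM (4.61-fold, interval 4.37 to 4.87), Il6 at 10.7 and 36.3 TPM (3.40-fold, interval 2.96 to 3.92) and Ch25h at 3.81 and 13.3 TPM (3.54-fold, interval 2.89 to 4.38). The adhesion receptor gene Cd44, a target of AP-1, was at 125 and 313 TPM. Timp1, an inhibitor of metalloproteinases named after its values were seen, was the gene at least 2-fold higher in replicate 1, at 5.35 and 1.45 TPM. The list thus held genes on both sides, and Tnf, which ATF3 is also known to repress, was not among those apart. Any part of ATF3 or AP-1 in these differences was not tested.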

How the data were processed

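PolyA RNA-seq of 1 group of 2 libraries was used as deposited. Per the notes deposited with each sample, reads were mapped to mm10 with GENCODE M21, and gene and transcript tables came from transcriptome alignments. Those tables give, as deposited, expected counts (estimated, not always whole), TPM, FPKM and, per transcript, a percent of the gene's abundance. A second transcript table, made by the authors directly from reads and an index, gives estimated counts and TPM and was summed to genes. Program names and strand use: not given in the sources used here.

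Members and gene lists were chosen with earlier results of these data known. Named genes are the 10 members, the 4 highest of each other list by mean TPM, any list gene at least 2-fold apart with a mean count of at least 100, and genes overlapping a member. A gene that this rule would name is not reported here. For markers, lists are summarised by count. Levels are in TPM, as a mean ± SD over the 2 libraries. Ratios used library sizes scaled by TMM (edgeR 4.0.16, R 4.3.3) and exact Clopper-Pearson 95% intervals computed in R. Both were checked on simulated Poisson counts, which held known fold changes and counting error only. That check does not cover any other spread between libraries. No test of a condition was possible. These intervals and the 3-read floors cover counting error alone and treat each read as independent. PCR copies of a molecule are counted as separate reads, so the intervals can be too narrow. They also leave out the error of assigning reads to overlapping genes and transcripts. The settings varied were library scaling (DESeq2 1.42.0 size factors or totals), TPM ratios with pseudocounts of 0.01 and 1, the filter on counts, thresholds of 5 and 20 TPM, a 1.5-fold limit, FPKM, TPM rescaled without ribosomal and mitochondrial genes, the second quantification and leaving out a library. Protein-coding transcripts alone and the sum of Jund and Gm11175 were added after the data were seen. Motifs and the shown sequences come from RefSeq (GRCm38.p6) and GENCODE M21.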

Additional observations from a re-analysis of the deposited data

How the results depend on the processing

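The count of 6 members at 10 TPM in both libraries was 6 under all 7 alternatives, including either library alone (6 to 6). The count of members at least 2-fold apart, 3 as reported, was 2 by library totals, by TPM with a pseudocount of 1 and with a mean count of at least 100, and 4 with no filter, where Fosl1 enters with 1 read. The median log2 ratio of the members was 0.05 and moved to -0.14 with no filter and to -0.13 with a mean count of at least 100, since those settings change which members enter. It was -0.02 by library totals, where the median of all genes was -0.09. The JUN share of FOS and JUN TPM ranged from 96.2% to 96.9% over single libraries and was 96.4% in the second quantification. Fos stayed higher in replicate 1, and Fosb and Fosl2 higher in replicate 2, in each alternative run for them. Fosl2 fell under 2-fold by library totals and from protein-coding transcripts (0.89 on the log2 scale). The share of Fos-201 in Fos, 98.7% on average, was 82.1% in the second quantification. Fosb came to 0.78 on the log2 scale with a pseudocount of 1. The side of Atf3 changed: 0.05 from counts, -0.02 by library totals, -0.13 from protein-coding transcripts and 0.81 by TPM. In the second quantification the order of mean TPM was the same, and Jund was at 123 and 115 TPM, above Batf2 in both libraries. No paired analysis was possible because the libraries form 1 group. Leaving out a library gives no ratio between libraries. Depth limits Fosl1, Fosb and the transcript shares of FOS genes.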
